A study of Mus musculus with 4 samples.

Results

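Splenic B cells from mice with an Il2rb deletion in the B lineage (KO) were compared with B cells from Cre control mice, both 4 days after sheep red blood cells were given intraperitoneally (day 4). A cell entered the comparison when its barcode in the B cell library had at least 200 genes, under 10% mitochondrial UMIs, a leading hashtag of at least 10 UMIs and at least 3 times the next hashtag, at least 1 UMI of the B cell receptor component Cd79a and 0 UMIs of the T cell receptor component Cd3e. UMIs (unique molecular identifiers) count single captured RNA molecules. The rule kept 1950 KO and 1487 control day 4 cells, 3437 of the 15646 cell barcodes in the series, and 97.3% of the KO and 94.8% of the control day 4 cells with 1 hashtag. The same rule gave 982 KO and 1101 control B cells from unimmunized mice (day 0). A second library of magnetically isolated CD4+ T cells, with Cd3e in place of Cd79a, gave 3658 KO and 1977 control cells at day 4.

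Both groups are on the C57BL/6NRj background, and both are given in the labels with the same genotype, CD19Cre/+ with Il2rbfl/fl. The genotype of a pool was therefore taken from the text that ties each hashtag to "KO" or "Cre" and a day. CD19Cre places the recombinase in a gene active in B cells and not in T cells, and the controls carry it too. The B cells came from a magnetic isolation and not from a sort by surface stain. The sources used here do not give the floxed exons, the age and sex of the mice, or the number of mice per pool. Each genotype and day is 1 pool, so no difference has a replicate check and no p-value is given. The intervals printed are 95% and cover counting error only.

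The receptors for interleukin-2 and interleukin-15 have a beta chain in common, the product of Il2rb. With the common gamma chain Il2rg it signals through the kinases Jak1 and Jak3 to Stat5a and Stat5b. Sheep red blood cells are a T cell-dependent antigen, after which B cells of the spleen are activated, divide, and give rise to antibody-secreting plasmablasts and to germinal center B cells.

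The assignment of a cell to a genotype rests on 15-base antibody barcodes, which are shown because they alone separate KO from control in the same library, with capitals marking the whole barcode:
KO day 4: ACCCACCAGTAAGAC
Cre control day 4: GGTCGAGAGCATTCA
The cell's own hashtag had a median of 2569.5 UMIs in KO cells and 4380 UMIs in control cells, and the next hashtag a median of 150 UMIs in KO cells and 57 UMIs in control cells. Median depth was 5851 UMIs and 2066 genes per KO cell and 6076 UMIs and 2074 genes per control cell, and the pools summed to 14285158 UMIs in KO and 11676416 UMIs in control. The median mitochondrial share was 3.60% in KO cells and 3.32% in control cells. The B lineage factor Pax5, which the rule did not use, stood at 253 CPM (UMIs of a gene scaled to the same total in each pool) in KO and 248 CPM in control. A count of 0 allows a level of up to 0.210 CPM in KO and 0.257 CPM in control, the level of 3 UMIs. The barcodes of 44 of the day 4 cells also occur in the T cell library, and over all days 60 B cell barcodes were T cells there. Only the B library's counts for those barcodes entered the B cell values.

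Il2rb itself was at the edge of detection in B cells of both genotypes. It had 4 UMIs in KO cells (0.280 CPM, interval 0.0763 to 0.717) and 11 UMIs in control cells (0.942 CPM, 0.470 to 1.69), and KO over control stood at 0.297 (0.0690 to 1.003). At day 0 it had 0 UMIs in both pools. The interval of the ratio reaches 1, and the 5′ tag counts need not cover the floxed exons, so the gene (chr15:78479256-78495271, minus strand, mm10) is a weak check of the labels. In day 4 T cells, where CD19Cre should not act, Il2rb stood at 104 CPM in KO and 115 CPM in control.

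The other members of the pathway were nearly level. Il2rg had 369.6 CPM in KO and 328 CPM in control (ratio 1.13, 1.08 to 1.18), and the ratio was on the other side of 1 at day 0, at 0.859 (0.811 to 0.910). Jak1 had 252.5 CPM in KO and 219.8 CPM in control (1.15, 1.09 to 1.21). Il2ra, the alpha chain that raises affinity for interleukin-2, had 29 UMIs in each pool, a ratio of 0.817 with an interval from 0.471 to 1.42 that leaves its direction unresolved at this depth. Il15ra stood at a ratio of 1.04, Jak3 at 1.02, Stat5a at 1.02 and Stat5b at 1.11 (0.975 to 1.27). Of the 9 measured members of the receptor pathway (at least 50 UMIs over both pools), 8 had a ratio above 1 and the median log2 ratio was 0.08, beside 60.1% of genes above 1 and a median of 0.04 over the 10652 genes with as many UMIs.

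Genes known to respond to STAT5 did not lie to one side. Of 12 measured, 6 were above 1 and the median log2 ratio was 0.00. The growth regulator Myc stood at 1.17 (1.07 to 1.28), the kinase Pim1 at 0.881 and the cyclin Ccnd3 at 0.894. Socs2, a feedback inhibitor of cytokine receptors, had 13 UMIs in KO and 33 UMIs in control (0.322, 0.156 to 0.628). Without the Jchain-rich cells described below its ratio was 0.776.

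Across all genes the pools were close. Among 8442 genes with at least 200 UMIs over both pools, 88.2% lay within 1.2-fold and the median absolute log2 ratio was 0.10. At 1.5-fold, 48 genes (0.569%) were higher in KO and 107 (1.27%) were lower. These counts were made largely of antigen receptor segments and of genes with many of their UMIs in 1 cell. Immunoglobulin and T cell receptor variable, joining and diversity segments made up 32 of the higher and 37 of the lower genes. More than 10% of the higher pool's UMIs came from 1 cell for 31 of the higher and 81 of the lower genes. With segments, such few-cell genes and genes in under 2% of the cells of both pools set aside, 12 higher and 24 lower genes were left. Of these, the same direction past 1.5-fold was seen at day 0 for 1 of 12 higher genes measured there (2.55% of all genes) and 1 of 21 lower genes (1.94%). In day 4 T cells it was seen for 1 of 12 higher genes (1.33%) and 3 of 23 lower genes (1.95%).

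**Figure D1:**
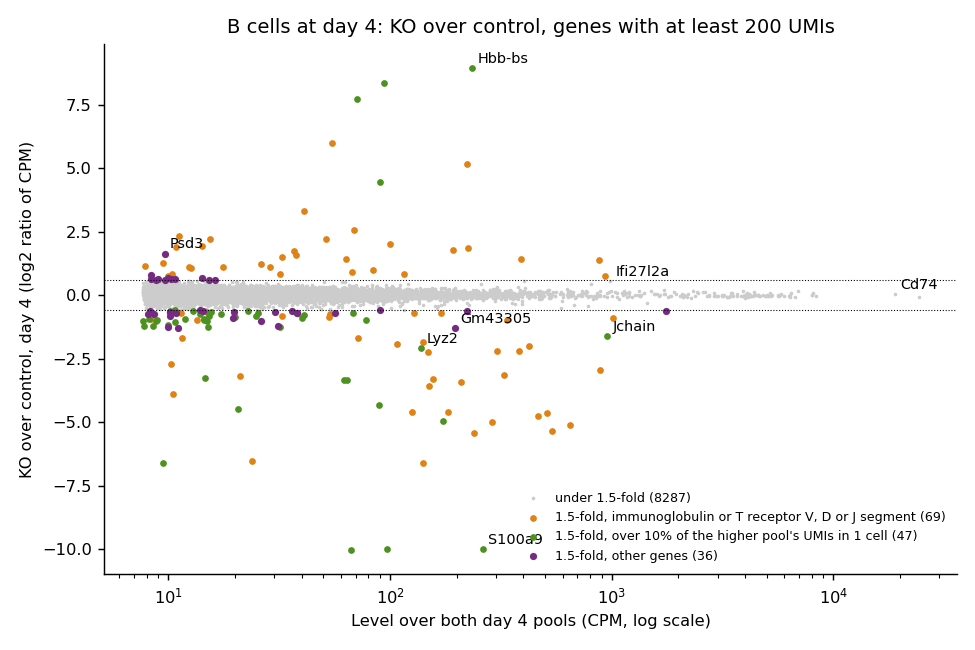
Each point is a gene with at least 200 UMIs over the KO and control day 4 B cell pools, with its level over both pools in CPM on a log axis and the log2 ratio of KO over control CPM on the vertical axis; dotted lines mark 1.5-fold, and 3 genes with 0 KO UMIs are not drawn. Of the genes past 1.5-fold, 69 are receptor segments, 47 others have more than 10% of the higher pool's UMIs in 1 cell, and 36 are neither, while 8287 genes lie between the lines.

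Psd3, an exchange factor for the small GTPase Arf6, was the gene furthest above 1 among the broadly expressed ones. It stood at 13.9 CPM in KO and 4.45 CPM in control day 4 B cells (ratio 3.11, 2.28 to 4.31). The ratio was 3.07 in day 0 B cells and 6.40 (2.96 to 16.5) in day 4 T cells, so Psd3 was higher in the KO pool in each of these comparisons. It was above 1 in each of the 4 day 4 clusters with at least 20 UMIs of it, from 1.68 to 10.8.

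The other genes among the 15 highest had ratios of 1.48 to 1.75. Apex2, an endonuclease of base excision repair, had 10.4 CPM in KO and 5.91 CPM in control (1.75, 1.31 to 2.37), but with each cell thinned to 1500 UMIs its ratio was 0.790. Tdp1, which removes stalled topoisomerase I from DNA, had 17.1 CPM in KO and 10.8 CPM in control (1.58, 1.27 to 1.98). Ski, a corepressor of SMAD factors, stood at 1.54, the RNA polymerase II-associated protein Rpap1 at 1.54, and the nuclear DNA-binding protein Banp at 1.54. Tmx4, a thioredoxin-related protein of the endoplasmic reticulum, stood at 1.59, the NAD synthetase Nadsyn1 at 1.56, the sulfotransferase Chst10 at 1.496 and the urate transporter Slc2a9 at 1.48. Zfp74, Klhl36 and Wdr5b completed the set at 1.56, 1.52 and 1.505. Tmem94 was at 1.58 (1.22 to 2.06), and on the other side of 1 in day 0 B cells (0.585, 0.391 to 0.866). Apart from Psd3 and the interferon-induced synthetase Oas2 (1.49 at day 4 and 1.96 at day 0), none of the 15 had a day 0 interval entirely above 1.

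Gm43305, a non-coding gene annotated as a processed transcript at chr14:54292443-54297456, was the lowest of the broadly expressed genes. It stood at 118 CPM in KO and 291 CPM in control (0.405, 0.382 to 0.429). Its ratio was 0.408 in day 0 B cells, with 87.1 CPM in KO and 214 CPM in control, and 0.316 in day 4 T cells, with 16.5 CPM in KO and 52.1 CPM in control. It was below 1 in each of the 10 day 4 clusters examined, from 0.304 to 0.586. Cpt1a, which controls the entry of fatty acids into mitochondria, had 18.0 CPM in KO and 36.1 CPM in control (0.499, 0.426 to 0.584). It was also below 1 in day 0 B cells (0.667, 0.536 to 0.828), in day 4 T cells (0.561, 0.476 to 0.661) and in each of the 9 clusters with enough UMIs. For Gm43305 and Cpt1a the KO pools were thus lower on both days and in T cells, which CD19Cre should leave intact.

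The rest of the 15 lowest genes stood at 0.407 to 0.627. Eaf2, a transcription elongation factor abundant in plasma cells, had 19.7 CPM in KO and 45.6 CPM in control (0.432, 0.372 to 0.4998). Txndc11, Prdx4 and Srprb, which serve folding, peroxide removal and protein entry in the endoplasmic reticulum, stood at 0.609, 0.619 and 0.627. Without cells rich in Jchain they were at 0.908, 0.887 and 0.884. Mybl2, a transcription factor of dividing cells, was at 0.608, the condensin subunit Ncapg at 0.614 and the histone-loading subunit Chaf1b at 0.625. The phospholipid phosphatase Plpp5 was at 0.407 and the lincRNA Gm5547 at 0.418. The NADPH sensor Nmral1 was at 0.539 and the calcium channel subunit Cacna1s at 0.561. Ada, adenosine deaminase, was at 0.607 (0.460 to 0.797), whereas the day 0 pools had 4.64 (2.45 to 9.53). Gm47283, which the annotation places on chromosome Y, was at 0.610, while the Y-linked genes Ddx3y, Uty, Kdm5d and Eif2s3y had 0 UMIs in both pools.

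**Figure D2:**
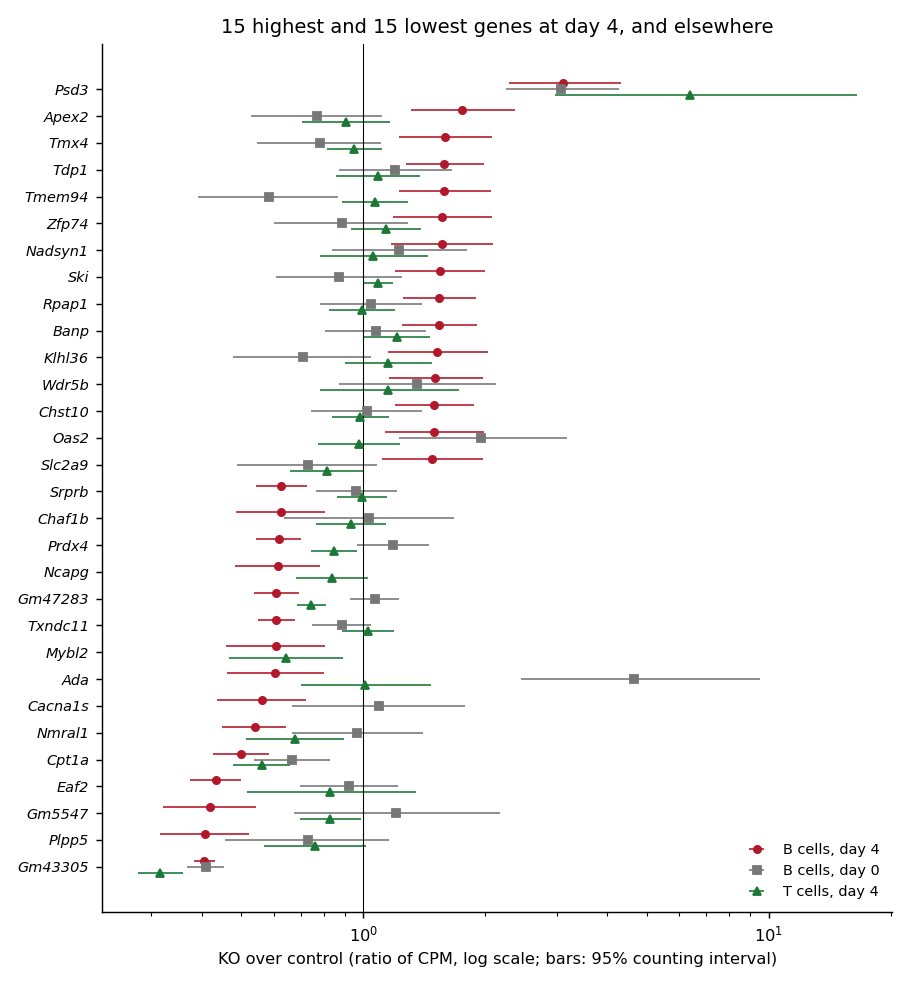
Ratios of KO over control CPM on a log axis, with 95% counting intervals as bars, for the 15 highest and 15 lowest broadly expressed genes of day 4 B cells, and for the same genes in day 0 B cells and day 4 T cells where at least 50 UMIs were counted. Psd3 lies above 1 in all 3 comparisons, at 3.11, 3.07 and 6.40, and Gm43305 below 1 in all 3, at 0.405, 0.408 and 0.316, whereas Ada lies at 0.607 at day 4 and 4.64 at day 0.

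The Jchain-rich tail of the pools, cells with at least 20 Jchain UMIs, was larger in control by its counting interval. Jchain, the joining chain of secreted IgM and IgA, had 7049 UMIs in KO (493 CPM) and 17623 UMIs in control (1509 CPM), a ratio of 0.327. Nearly all of it came from few cells. Cells with at least 20 Jchain UMIs were 16 of 1950 in KO (0.821%, 0.470 to 1.33%) and 25 of 1487 in control (1.68%, 1.09 to 2.47%), a ratio of shares of 0.488 (0.243 to 0.951). These cells held 96.7% of the Jchain UMIs in KO and 98.9% in control, and 3.43% of all UMIs in KO and 8.37% in control. The ratio of shares was 0.534 (0.290 to 0.964) at a minimum of 10 Jchain UMIs and 0.327 (0.132 to 0.744) at a minimum of 50. At day 0 it was 1.68 (0.535 to 5.74), from 9 KO and 6 control cells, an interval that includes 1. With cells of more than 3 times the median UMIs left out, 4 KO and 2 control cells of that kind remained, and with cells of at least 2 UMIs of other-lineage markers left out, 4 KO and 1 control cells. The ratio was then 1.5 and 3.09, from those few cells. Both alternatives remove most of the Jchain-rich cells themselves, so they cannot check the lower KO share. The plasma cell-like cluster described below has a median of 21311 UMIs per cell. It held 4 KO and 12 control day 4 cells, so most Jchain-rich cells of either pool were in other clusters.

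Genes of the plasma cell program were lower in the KO pool with those cells included. Of 14 measured, 1 was above 1 and 8 were at least 1.5-fold lower, where 2.82% of all genes with at least 50 UMIs were. The median log2 ratio was −0.78. In such sums, fewer cells of a type and less RNA per cell cannot be told apart. Prdm1, the factor that drives plasma cell differentiation, had 44 UMIs in KO and 94 UMIs in control (0.383, 0.261 to 0.553). Sdc1 (the surface marker CD138) had 53 UMIs in KO and 98 UMIs in control (0.442, 0.310 to 0.624). Xbp1, the factor that enlarges the secretory apparatus, had 143 CPM in KO and 191 CPM in control (0.745, 0.702 to 0.792). Mzb1, a chaperone of IgM assembly, was at 0.707 and the chaperones Creld2 and Fkbp11 at 0.515 and 0.556. The degradation factor Derl3 was at 0.609 and Tent5c at 0.497. Irf4, which is also expressed outside plasma cells, was at 0.943, and Tnfrsf17 (BCMA) was at 1.04 from 37 KO and 29 control UMIs. Without the Jchain-rich cells, 6 of 11 measured genes were above 1 and the median was 0.05. Prdm1 was then at 1.44, Sdc1 at 1.66, Xbp1 at 1.13 and Mzb1 at 0.946. At day 0, with all cells kept, 0 of 12 measured genes were above 1 and the median was −0.20. Of these, 4 were at least 1.5-fold lower, where 1.94% of all genes were. Jchain was at 0.741 (0.714 to 0.768) at day 0, when 1 KO cell held 51.6% of its KO UMIs. The lower side was thus not particular to day 4.

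Secretory pathway and unfolded protein response genes were also lower with those cells included. Of 22 measured, 1 was above 1, 16 had an interval entirely below 1 (7.45% of all genes with at least 50 UMIs had one), and the median log2 ratio was −0.21. Hsp90b1, the chaperone GRP94, had 676 CPM in KO and 908 CPM in control (0.745, 0.724 to 0.766), the secreted chaperone Manf was at 0.657 and Edem1, a lectin of glycoprotein degradation, at 0.723. Without the Jchain-rich cells 14 of 22 were above 1, with a median of 0.03, and Hsp90b1 stood at 1.2 and Manf at 1.08. At day 0, with all cells kept, the secretory median was −0.23 and Hsp90b1 was at 0.566. With those cells left out at day 4, the genes 1.5-fold lower numbered 44 of 8300 (0.53%) and those higher 44 (0.53%). Of the 107 lower genes 39 were among them, and of the 48 higher genes 30.

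Class-switched heavy chains illustrate how few cells carry such totals. Igha (IgA) had 170 UMIs in KO and 4309 UMIs in control, and 1 control cell held 49.9% of the control UMIs. Ighg2c had 132 UMIs in KO and 2174 UMIs in control, with 50.7% of the control UMIs in 1 cell, and Ighg3 had 180 UMIs in KO and 1477 UMIs in control, with 56.1% of the control UMIs in 1 cell. Ighm (IgM), spread over more cells, was at 0.808 with all cells and at 1.07 without the Jchain-rich ones. Ighd (IgD), expressed by resting B cells, stood at 608 CPM in KO and 595 CPM in control.

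**Figure D3:**
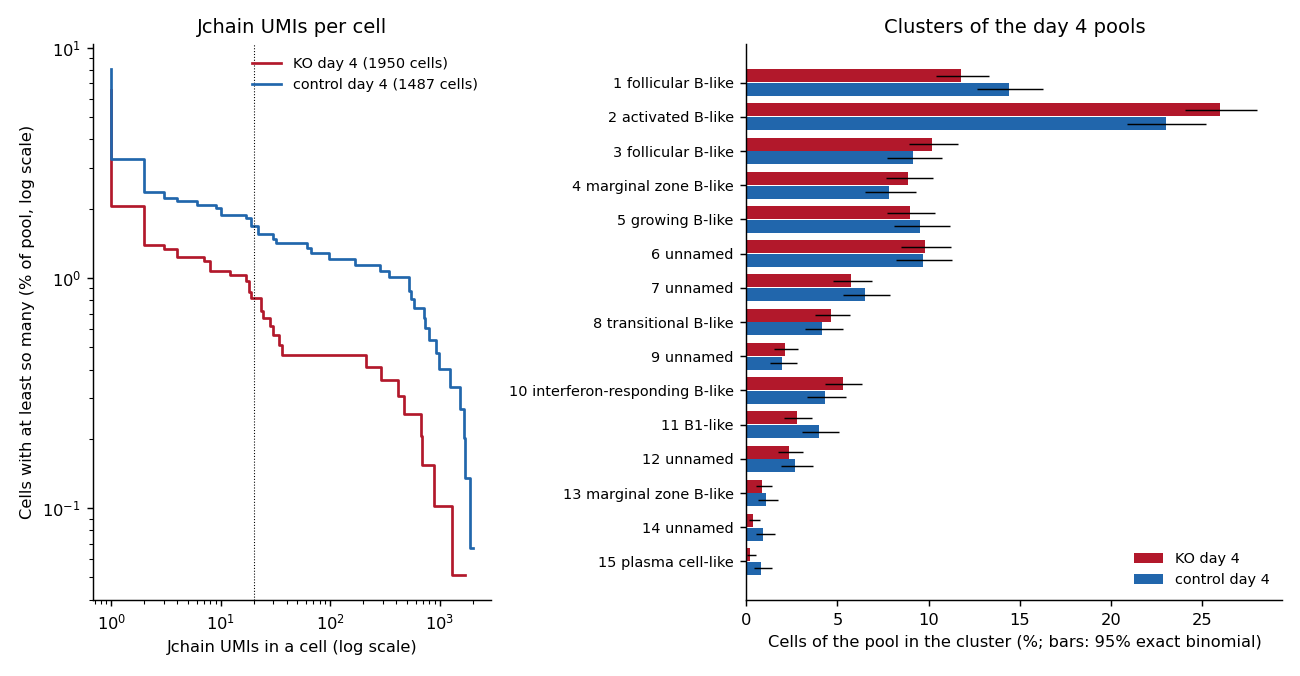
The left panel gives the percentage of each day 4 pool's cells with at least the number of Jchain UMIs on the horizontal axis, both axes logarithmic, with a dotted line at 20 UMIs, where the KO pool is at 0.821% and the control pool at 1.68%. The right panel gives the percentage of each day 4 pool in each of 15 clusters, with exact 95% binomial intervals; the plasma cell-like cluster 15 holds 4 KO and 12 control cells.

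Germinal center genes leaned lower in KO at day 4 by their median, −0.30 on the log2 scale with 3 of 14 above 1, while their summed level was the same, 722 CPM in KO and 718 CPM in control. The members lay on both sides of 1. Bcl6, the repressor that sets the germinal center fate and is also expressed in other B cells, had 66.2 CPM in KO and 54.0 CPM in control (1.23, 1.11 to 1.36). Gcsam, a germinal center motility regulator, was at 0.503, Mybl1 at 0.483, and S1pr2, the receptor that confines cells to the follicle, at 0.603. Cells with at least 20 UMIs over the list were 32 in KO (1.64%) and 36 in control (2.42%). At day 0 there were 13 such cells in KO and 0 in control, and the list's median was 0.83. A single control cell held 28.0% of the day 4 control UMIs of Gcsam and 24.5% of those of Mybl1. Without the Jchain-rich cells the median was −0.09 and 6 of 14 genes were above 1. It was 0.03 without cells over 3 times the median UMIs, 0.03 at the same cluster mix and 0.11 without cells of at least 2 other-lineage UMIs. The lower germinal center median thus did not hold across these alternatives. Cluster 12 below, which histone genes and Gcsam lead, has a median of 20628 UMIs per cell. Leaving out cells of many UMIs therefore removes cells of that kind.

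DNA replication genes were below 1 throughout at day 4. None of 18 was above 1, 14 had an interval entirely below 1 (7.45% of all genes), 2 were at least 1.5-fold lower (2.82% of all genes), and the median log2 ratio was −0.31. Rrm2, the ribonucleotide reductase subunit of dividing cells, had 28.8 CPM in KO and 54.1 CPM in control (0.532, 0.468 to 0.603). A single control cell held 18.2% of its control UMIs. The PCNA-binding factor Pclaf was at 0.698 and the helicase subunit Mcm3 at 0.721. Without the Jchain-rich cells the median was −0.11, with 5 of 18 above 1. Mitosis genes had a median of −0.17 with 3 of 18 above 1. The proliferation marker Mki67 had 76.5 CPM in KO and 103.7 CPM in control (0.738, 0.679 to 0.801), Top2a was at 0.756 and Birc5 at 0.732. Ube2c, a ubiquitin-conjugating enzyme of mitotic exit, was on the other side at 1.33 (1.17 to 1.51), and the kinetochore protein Cenpf at 1.47. Cells with at least 20 mitosis UMIs were 54 in KO (2.77%) and 49 in control (3.30%). Of the mitosis genes 9 of 18 were above 1 without the Jchain-rich cells, with a median of 0.04. The day 4 mitosis median was also above 0 when each cell was weighted equally (0.12) and at the same cluster mix (0.22), whereas the replication median stayed between −0.35 and −0.05 in every alternative run. In day 4 T cells the replication median was −0.21 with 1 of 18 above 1, against 0.01 over all genes. The mitosis median there was −0.12 with 4 of 18 above 1. The lower side was thus not particular to B cells. At day 0 the B cell medians were 0.23 for replication and 1.40 for mitosis, on the opposite side from day 4. Few cells carried the day 0 values, with 10 KO and 7 control cells at 20 mitosis UMIs or more. The richest 10 cells held 62.3% of the mitosis UMIs in KO and 31.9% in control. For replication they held 36.9% in KO and 18.1% in control.

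Type I interferon response genes had a median of 0.28 on the log2 scale, the highest among the lists other than other-lineage markers. Of 19 measured, 17 were above 1, 11 had an interval entirely above 1 (12.4% of all genes with at least 50 UMIs had one), and none was 1.5-fold higher, where 1.71% of all genes with at least 50 UMIs were. Ifi27l2a, an abundant interferon-induced gene, had 1149.9 CPM in KO and 785 CPM in control (1.47, 1.43 to 1.503). It was above 1 in each of the 10 clusters examined, from 1.09 to 1.77. Ifi213, a member of the family of DNA-sensing proteins, had 72.8 CPM in KO and 50.2 CPM in control (1.45, 1.31 to 1.61). Irf7, which amplifies interferon production, was at 1.305, the synthetases Oasl1 and Oas1a at 1.33 and 1.27, and Rtp4 at 1.27. The median was 0.25 without the Jchain-rich cells. The day 0 pools gave a median of 0.37 with 17 of 18 above 1, and Ifi27l2a at 1.5. In day 4 T cells the median was 0.05 with 10 of 19 above 1, against 0.01 over all genes, and Ifi27l2a stood at 1.10.

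Isg15 and Isg20, an interferon-induced ubiquitin-like protein and an exonuclease, were the exceptions. Isg15 had 39.97 CPM in KO and 48.2 CPM in control (0.829, 0.737 to 0.933), and 1 control cell held 21.0% of its control UMIs. With the richest cell of each pool left out, Isg15 stood at 1.02. Isg20 was at 0.760 with all cells and at 1.15 without the Jchain-rich ones.

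**Figure D4:**
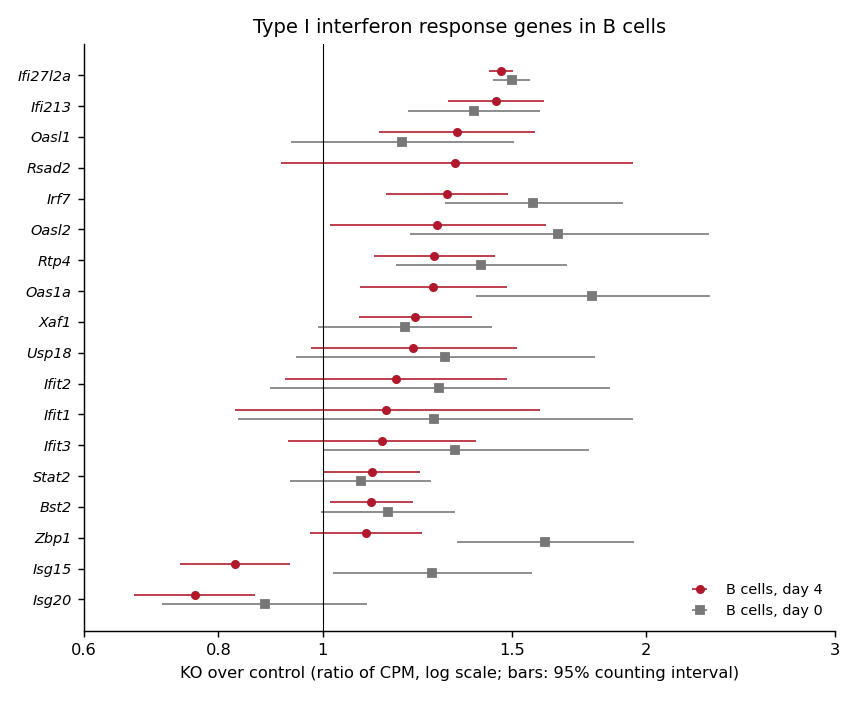
Ratios of KO over control CPM in B cells at day 4 and, where at least 50 UMIs were counted, at day 0, on a log axis with 95% counting intervals, for 18 type I interferon response genes. Ifi27l2a is at 1.47 at day 4 and 1.5 at day 0, and Isg15 and Isg20 are the 2 genes below 1 at day 4.

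Transcription factors activated by interferon bind the interferon-stimulated response element. Its core, searched as GAAANNGAAA on both strands, was found in 1131 of 32851 RefSeq promoter windows (3.44%) of 300 bases, 250 before and 50 after the gene start, on GRCm38.p6. Of 14 interferon list genes with a window, 8 held it. The sites are shown because the list's ratios spread from Ifi213 to Isg15 among genes that carry the same element. Each is read on the gene's strand with the element in capitals, so that TTTC first marks the element in reverse:
Ifi213: cgtctctgagGAAATCGAAAgctatgaacc
Oas1a: cccttctcggGAAATGGAAActgaaaatct
Rsad2: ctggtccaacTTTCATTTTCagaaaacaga
Ifit1: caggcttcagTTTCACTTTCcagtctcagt
Stat2: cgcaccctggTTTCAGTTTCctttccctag
Isg15: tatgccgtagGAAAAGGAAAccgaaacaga
The Ifi213 site is at chr1:173599326-173599355 on the minus strand, 68 bases before the start. The Oas1a site is at chr5:120907526-120907555 on the minus strand and the Rsad2 site at chr12:26456553-26456582 on the minus strand. The Ifit1 site is at chr19:34640775-34640804 on the plus strand, the Stat2 site at chr10:128270266-128270295 on the plus strand, and the Isg15 site at chr4:156200877-156200906 on the minus strand. Day 4 ratios of these genes were 1.45 for Ifi213, 1.27 for Oas1a, 1.33 for Rsad2, 1.15 for Ifit1, 1.11 for Stat2 and 0.829 for Isg15. The other 2 genes with the element were Ifit3 (1.13) and Bst2 (1.11). Only the first site of each gene is printed, and Isg15, Ifit1 and Ifit3 have a second. The search took no overlapping matches. In Isg15 and Oas1a the end of the capitals also begins an overlapping match that was not marked, so the capitals need not mark the stretch that is bound. The matches describe these windows and not binding.

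Genes of cholesterol synthesis and uptake had a median log2 ratio of 0.21, with 14 of 17 above 1, beside 60.1% of all genes, and 8 intervals entirely above 1, beside 12.4% of all genes. Sqle, the squalene epoxidase, had 22.96 CPM in KO and 17.3 CPM in control (1.33, 1.11 to 1.59). The desaturase Sc5d was at 1.32, the HMG-CoA synthase Hmgcs1 at 1.26 and the isomerase Idi1 at 1.25. The median was 0.18 without the Jchain-rich cells, 0.31 in day 0 B cells and 0.23 in day 4 T cells, where 16 of 17 were above 1.

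B cell receptor signalling genes were slightly above 1, 20 of 21 with a median of 0.10 and 13 intervals entirely above 1, beside 12.4% of all genes, most of which have fewer UMIs and wider intervals. Cr2, the complement receptor CD21 that lowers the threshold for antigen, had 416 CPM in KO and 332 CPM in control (1.25, 1.202 to 1.304). The inhibitory phosphatases Ptpn6 (SHP-1) and Inpp5d (SHIP1) were at 1.21 and 1.195, and Inpp5d was above 1 in each of 10 clusters. The adaptor Pik3ap1 was at 1.19. At day 0 Cr2 stood at 1.005, Ptpn6 at 1.0, Inpp5d at 0.994 and Pik3ap1 at 0.964. The list's median was 0.05 without the Jchain-rich cells, and 16 of 21 were above 1. MHC class II genes were above 1 in 11 of 11, but by a median of 0.08 that was 0.02 without those cells.

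Genes of activation and of NF-kB leaned slightly to the higher side at day 4 and to the lower side at day 0. All genes leaned the same way by less, with medians of 0.04 at day 4, where 60.1% were above 1, and −0.02 at day 0. The activation list had a median of 0.15 (13 of 17 above 1) at day 4 and −0.10 (6 of 14) at day 0. Cd69, an early activation antigen, had 95.2 CPM in KO and 76.0 CPM in control (1.25, 1.15 to 1.36), and Icosl, the ligand of the T cell costimulator ICOS, was at 1.21. Lifr, the leukemia inhibitory factor receptor, was lower, at 22.2 CPM in KO and 30.7 CPM in control (0.724, 0.620 to 0.844), and so was the transcription factor Nfil3 at 0.764. NF-kB genes had 12 of 13 above 1 with a median of 0.10 at day 4, and 0 of 13 with a median of −0.08 at day 0. Without the Jchain-rich cells the day 4 medians of the activation and NF-kB lists were 0.06 and 0.04, beside 0.03 over all genes. The subunit Nfkb2 had 1.28 (1.16 to 1.41) at day 4 and 0.829 (0.736 to 0.934) at day 0. Its partner Rel had 1.18 at day 4, below 1 at day 0 with 0.915. Of the immediate early genes, Egr2 had 8.75 CPM in KO and 5.48 CPM in control (1.60, 1.17 to 2.19), and Fos was at 0.437 with all cells and 0.922 without the Jchain-rich ones.

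Marginal zone and Notch2 genes had a median of 0.16 with 7 of 12 above 1, no larger a share than the 60.1% of all genes. The median was 0.09 without the Jchain-rich cells and on the other side of 0 when thinned (−0.04), averaged over cells (−0.02) and without cells of at least 2 other-lineage UMIs (−0.01). Asb2, a ubiquitin ligase subunit, had 7.77 CPM in KO and 3.68 CPM in control (2.11, 1.47 to 3.07), the largest ratio in the list, beside 1.36 (0.834 to 2.25) at day 0. The Notch targets Dtx1 and Hes1 were at 1.23 and 1.15, with Dtx1 above 1 in each of 10 clusters. Genes of B1 cells, the innate-like B cells of body cavities and spleen, had a median of −0.33 with 2 of 6 above 1, but of 0.11 at the same cluster mix and 0.21 without cells of at least 2 other-lineage UMIs. The calcium-binding protein S100a6 was at 0.680 at day 4 and 1.85 at day 0, and the annexin Anxa2 at 0.707 at day 4 and 4.35 at day 0. Ctla4 had 6 UMIs in KO and 29 UMIs in control, of which 58.6% were in 1 control cell. Among homing receptors Ccr6 and Cxcr5, which guide B cells to inflamed sites and follicles, were at 1.24 and 1.19, and the integrin Itgb1 at 0.759.

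A few single genes of other lists stood out. Tsc22d3 (GILZ), induced by glucocorticoids, had 124 CPM in KO and 94.7 CPM in control (1.31, 1.22 to 1.42), and its list had a median of 0.23 with 6 of 8 above 1. Tsc22d3 was at 1.23 in day 4 T cells. Tlr7, the receptor for single-stranded RNA, was at 1.31 (1.15 to 1.49). Hsf1, the heat shock transcription factor, was at 1.31 and the chaperone Hsph1 at 1.296, with Hsf1 at 0.773 at day 0. Trp53inp1, a p53 target with a role in stress and autophagy, had 35.1 CPM in KO and 27.2 CPM in control (1.29), and 1 control cell held 9.75% of its control UMIs. Its ratio was 1.82 without the Jchain-rich cells, 1.70 at day 0 and 1.64 in day 4 T cells, and it was above 1 in each of 10 clusters. The ribosomal protein genes and those of oxidative phosphorylation had medians of −0.02 and −0.04.

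**Figure D5:**
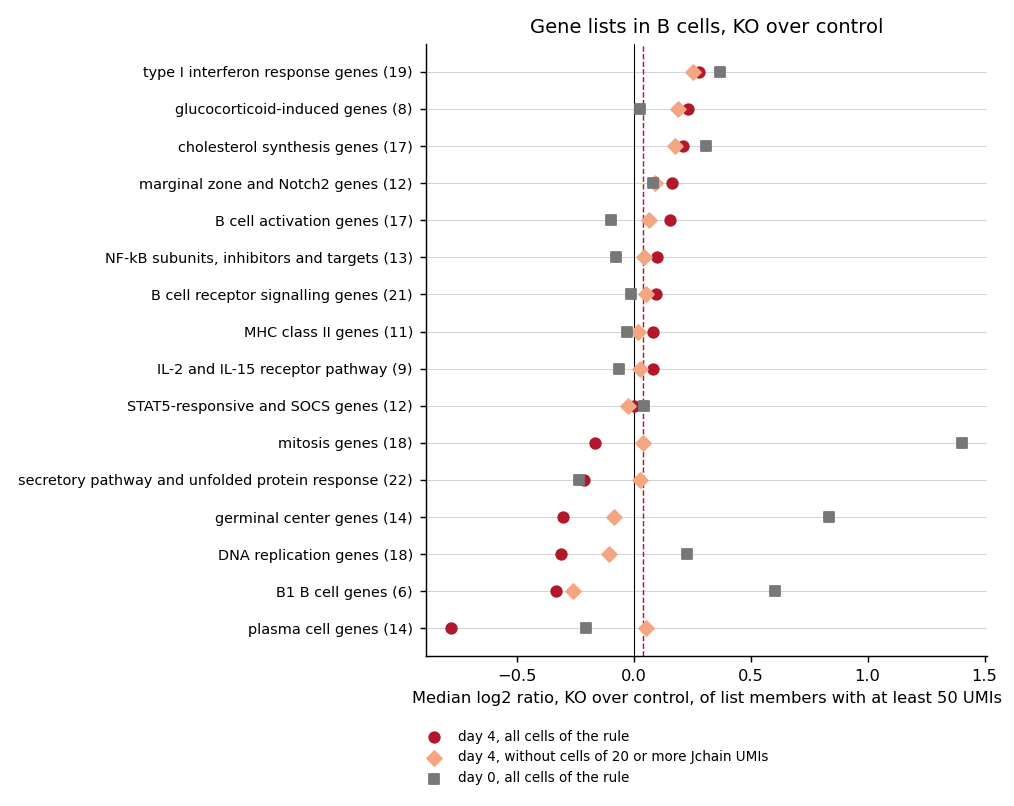
Median log2 ratio of KO over control for the members of 16 gene lists with at least 50 UMIs, with the number of members in parentheses, for day 4 B cells, day 4 B cells without cells of at least 20 Jchain UMIs, and day 0 B cells; the dashed line is the median of all genes at day 4, 0.04. Plasma cell genes are at −0.78 with all cells and 0.05 without the Jchain-rich cells, and type I interferon response genes at 0.28 and 0.25.

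Clusters of the B cells were built without genes past 1.5-fold between the genotypes on either day, which can favor a like makeup. They had a like makeup in the KO and control day 4 pools. The largest was activated B-like and held 26.0% of KO and 23% of control cells (ratio 1.13, 0.984 to 1.3). Follicular B-like cluster 1 held 11.8% of KO and 14.4% of control cells (0.820, 0.677 to 0.992), and follicular B-like cluster 3 held 10.2% of KO and 9.15% of control cells. The marginal zone B-like cluster 4 held 8.87% of KO and 7.8% of control cells, and the growing B-like cluster 5 held 8.97% of KO and 9.55% of control cells. The interferon-responding B-like cluster held 5.28% of KO and 4.30% of control cells (1.23), an interval that included 1 at day 4, while at day 0 the ratio was 1.91 (1.23 to 3.01). The B1-like cluster held 2.77% of KO and 3.97% of control cells, and its interval too included 1. Unnamed cluster 12, led by histone genes, Gcsam and mitotic kinesins, held 2.36% of KO and 2.69% of control cells. The plasma cell-like cluster held 4 KO and 12 control cells (0.254, 0.0598 to 0.839), a ratio that was 2.32 without cells of at least 2 other-lineage UMIs. Apart from that cluster and cluster 1, no cluster's ratio at day 4 was clear of 1 by its interval.

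Cells with at least 20 UMIs of other-lineage markers were few, 13 in KO and 16 in control, and their lineages were uneven between the pools. Without them, 45 genes were 1.5-fold higher and 81 lower. Cells with at least 2 such UMIs, left out in another alternative, were 454 of 1950 KO and 331 of 1487 control cells. Of these, 216 KO and 173 control cells had at least 2 UMIs of the dendritic list, which holds Bst2. Neutrophil markers summed to 17 UMIs in KO and 20208 UMIs in control, of which 2 control cells held 20169. S100a8 had 0 UMIs in KO and 7759 UMIs in control, and Lcn2 and Ltf were likewise at 0 in KO, against 729 and 418 UMIs in control. Monocyte and macrophage markers summed to 863 UMIs in KO and 2895 UMIs in control, with 6 KO and 12 control cells at 20 UMIs or more, and Lyz2 (lysozyme) was at 0.235. Erythroid markers summed to 13380 UMIs in KO and 791 UMIs in control, and 1 KO cell held 99.6% of the 6076 KO UMIs of Hbb-bs. T cell markers summed to 422 UMIs in KO and 273 UMIs in control, of which Lck, a kinase that some B cells also express, gave 399 UMIs in KO and 249 UMIs in control. These genes, like Igha, Ighg2c and Ighg3, were chosen after their values were seen.

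With both the Jchain-rich cells and the cells of at least 20 other-lineage UMIs set aside, 1922 KO and 1448 control cells were left, and with receptor segments included, 40 of 8196 genes with at least 200 UMIs (0.488%) were 1.5-fold higher and 27 (0.329%) lower. Outside the receptor segments there were 14 higher and 13 lower genes. The higher ones were led by Psd3 (2.94), the histone gene Hist2h4 (1.89), Tdp1 (1.83), Trp53inp1 (1.79) and Apex2 (1.75). They also held the histone genes Hist1h2af (1.75) and Hist1h2ab (1.57), Ube2c (1.67) and the replication kinase Cdc7 (1.55), genes used by dividing cells. The richest KO cell held 20.9% of the KO UMIs of Ube2c, 18.6% of those of Hist1h2ab and 16.7% of those of Hist1h2af. The lower ones were led by Fcer1g (0.210), the Fc receptor gamma chain of myeloid cells, Ighg1 (0.373), Gm43305 (0.396) and Cpt1a (0.474). Ifitm3 (0.549) and Wfdc17 (0.587) followed. The richest control cell held 24.2% of the control UMIs of Fcer1g, 24.2% of those of Ifitm3, 17.5% of those of Wfdc17 and 17.2% of those of Ighg1. Eaf2 stood at 0.591 and Nmral1 at 0.617 in these cells, so both were below 1 outside the Jchain-rich cells. These genes were chosen after the cells with other-lineage RNA had been seen.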

How the data were processed

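The authors deposited matrices of UMI counts for genes and hashtag antibodies in each cell. They used Cell Ranger 5.0.0 and mm10 per the submitters' processing notes, from a 10x 5′ library per the labels' protocols. No test was run, since each genotype and day is 1 pool. Counts were summed per pool as CPM of all gene UMIs. A level has an exact Poisson interval, a ratio an exact conditional binomial one and a share an exact binomial (Clopper-Pearson) one, all at 95%. Genes counted as past 1.5-fold had at least 200 UMIs over both pools, and list members at least 50. The hashtag rule removed cells of 2 pools. Doublets within a pool were not removed and no caller was run, and cells over 3 times the median UMIs were left out as an alternative. Positions came from GENCODE vM21, which matched 32158 of 32285 gene identifiers (99.6%).

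Genes named are Il2rb with its receptor pathway, the 15 highest and 15 lowest ratios among genes with at least 200 UMIs, an interval without 1, at most 10% of the higher pool's UMIs in 1 cell and a UMI in at least 2% of the cells of 1 pool, without receptor segments, and from each list as many as 4 members at either end whose interval leaves out 1. Other list members are named to give a value. The members, gene lists and marker lists were chosen with earlier results of these data known. Clusters were made with scanpy 1.11.5 and leidenalg 0.10.2 (2000 variable genes, 30 principal components, 15 neighbors, resolution 1.0) without the 227 genes past 1.5-fold between genotypes on either day and without immunoglobulin, T receptor, ribosomal, mitochondrial and sex-linked genes. They were named from the marker lists, which for some clusters rest on activation or interferon genes. Values within clusters used the 10 clusters with at least 50 cells in each day 4 pool, and there only genes with at least 20 UMIs. Python 3.11.15, numpy 2.4.6, scipy 1.17.1 and pandas 2.3.3 were used. Alternatives changed the cells kept, the scaling, the UMI minimum and the fold. Leaving out cells with 20 or more other-lineage UMIs, alone or with the Jchain-rich cells, was added after the data were seen. Some members counted in the lists are not reported here by name.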

Additional observations from a re-analysis of the deposited data

Results flagged for a closer look

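For 22 genes named in the text the KO over control ratio was on opposite sides of 1 on the 2 days, each with an interval without 1. The difference between the days was not tested, since each pool is 1 sample. Lower in KO at day 4 and higher at day 0 were the germinal center genes Mybl1 (0.483 at day 4 and 15.1 at day 0), S1pr2 (0.603 and 4.12) and Gcsam (0.503 at day 4; at day 0 it had 37 UMIs in KO and 0 in control, 12.7-fold against a floor of 3 UMIs, with an exact lower limit of 9.83). Genes of dividing cells had the same order, with Rrm2 at 0.532 at day 4 and 2.47 at day 0, Pclaf at 0.698 and 4.15, Mki67 at 0.738 and 3.18, Top2a at 0.756 and 2.54, and Birc5 at 0.732 and 5.03. The same order was seen for Ada at 0.607 and 4.64, Isg15 at 0.829 and 1.26, S100a6 at 0.680 and 1.85, and Anxa2 at 0.707 and 4.35. At day 0, 13 KO and 0 control cells had at least 20 UMIs over the germinal center list. Over the mitosis list 10 KO and 7 control cells had as many, and 10 cells held 62.3% of the KO mitosis UMIs. Both Gcsam and Rrm2 had over 10% of their control day 4 UMIs in 1 cell. Further genes of that kind did likewise, with Lyz2 at 0.235 and 1.91, Fcer1g at 0.419 and 2.78, Ifitm3 at 0.584 and 2.3, and Ighg3 at 0.0996 and 2.76. Ighm did so too, at 0.808 and 1.05. Higher in KO at day 4 and lower at day 0 were Il2rg (1.13 at day 4 and 0.859 at day 0), Tmem94 (1.58 and 0.585), Nfkb2 (1.28 and 0.829), Rel (1.18 and 0.915) and Hsf1 (1.31 and 0.773). Alternatives were run for 17 of the 22 genes, and for 11 of them the day 4 ratio was above 1 under at least 1, on the same side as at day 0. Those 11 are Gcsam, S1pr2, Rrm2, Pclaf, Mki67, Top2a, Birc5, Ada, Isg15, S100a6 and Anxa2. Without cells over 3 times the median UMIs, for example, Mki67 was at 1.51, Rrm2 at 1.27 and Top2a at 1.27. Cluster 12, led by histone genes, Gcsam and mitotic kinesins, has a median of 20628 UMIs, so that alternative leaves out cells of that kind.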

How the results depend on the processing

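With 1 pool a side, replicates could not be left out. No paired analysis was possible because each genotype and day is 1 pool with no replicate number. The 48 genes higher in KO became 20 when cells were thinned to 1500 UMIs, 368, 97 and 25 at UMI minimums of 20, 100 and 500, 177 at 1.3-fold and 30 at 2-fold. The 107 lower genes became 44 without cells of 20 or more Jchain UMIs, 27 without cells of 2 or more other-lineage UMIs, 28 without cells over 3 times the median UMIs, 30 when thinned, 70 without the cell richest in each gene, 57 at the same cluster mix, 27 without Jchain-rich and other-lineage cells, 571, 178 and 64 at minimums of 20, 100 and 500, 222 at 1.3-fold and 55 at 2-fold. Il2rb had 0 UMIs in KO, a ratio of 0, without cells of 2 or more other-lineage UMIs and when thinned. The ratio of shares of Jchain-rich cells was 3.09 without cells of 2 or more other-lineage UMIs and 1.5 without cells over 3 times the median. Both alternatives leave out most of the Jchain-rich cells. Of the 106 genes named, 33 had a ratio that turned to the other side of 1 under some alternative, 82 of 1271 values. Such turns were counted only for genes whose interval with all cells kept leaves out 1. Of the other values, 956 stayed within that interval and 233 moved outside it. Averaged over cells, Hsp90b1 was 1.03, Mki67 1.001, Top2a 1.02 and Xbp1 1.04. At the same cluster mix, Cacna1s was 1.01, Mki67 1.01, S100a6 1.07 and Top2a 1.02. When thinned, Ada was 1.98, Apex2 0.790, Birc5 1.11, Cacna1s 1.04, Hsp90b1 1.01, Isg20 1.27, Mybl2 1.14, Nadsyn1 0.986, Ncapg 1.27, Oas1a 0.962, Pclaf 1.02, Sdc1 2.28, Sqle 0.918, Top2a 1.03, Ube2c 0.984 and Xbp1 1.01. Without Jchain-rich cells, Creld2 was 1.09, Derl3 1.16, Hsp90b1 1.2, Isg20 1.15, Manf 1.08, Prdm1 1.44, Sdc1 1.66, Tent5c 1.63 and Xbp1 1.13. Without these and other-lineage cells, Creld2 was 1.09, Derl3 1.15, Edem1 1.03, Fos 1.36, Hsp90b1 1.19, Isg20 1.12, Manf 1.06, Mki67 1.12, Prdm1 1.43, Sdc1 1.54, Tent5c 1.29 and Xbp1 1.15. Without cells of 2 or more other-lineage UMIs, Ada was 1.55, Anxa2 1.13, Cacna1s 1.03, Creld2 1.15, Edem1 1.04, Gcsam 1.87, Hsp90b1 1.2, Isg15 1.24, Isg20 1.08, Jchain 23, Manf 1.08, Mki67 1.24, Prdm1 1.60, S100a6 1.42, S1pr2 1.92, Sdc1 2.63, Tent5c 2.70, Top2a 1.01, Txndc11 1.02, Xbp1 1.26 and the share of cluster 15 2.32. Without cells over 3 times the median, Birc5 was 1.09, Derl3 1.01, Gcsam 1.04, Hsp90b1 1.19, Isg20 1.05, Jchain 1.56, Manf 1.06, Mki67 1.51, Prdm1 1.39, Rrm2 1.27, Sdc1 1.51, Socs2 1.88, Tent5c 1.09, Top2a 1.27, Ube2c 0.953 and Xbp1 1.16. Without the richest cell, Isg15 was 1.02. The cause of these moves was not tested beyond the cells each alternative leaves out. Scaling by the median ratio lowered all ratios by 1.03-fold, 0.04 on the log2 scale. Of 475 list medians 391 moved by less than 0.1 on the log2 scale. The median stayed on its side of 0 under every alternative for type I interferon response (0.15 to 0.32), cholesterol synthesis (0.09 to 0.22) and DNA replication genes (−0.35 to −0.05). This was not particular to these lists. Others did the same, among them glucocorticoid-induced genes (0.11 to 0.24) and Toll-like receptors and partners (0.06 to 0.14). Depth limits the many named genes with under 300 UMIs, whose intervals span 1.5-fold or more.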
